A study of Homo sapiens with 10 samples.

Results

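Claudins, the MARVEL proteins occludin and tricellulin, and the scaffold ZO-1 form the tight junction, and 9 of their genes were followed here in a pair of human cell lines of endothelial type, EA.hy926 and HMEC-1. The genes were CLDN1, CLDN4, CLDN5, CLDN7, CLDN11, CLDN12, OCLN, MARVELD2 and TJP1. They were taken from the count table by matching its Ensembl identifiers to these symbols in GENCODE 44, which found all 9 among 60448 listed genes. RNA-seq was done on untreated cells of both lines, 5 biological replicates each, to compare the baseline expression of lines that had been exposed to calcium electroporation in other experiments. EA.hy926 came from the fusion of umbilical vein endothelium with A549, a lung carcinoma line of epithelial origin, and it was grown in Advanced DMEM with 5% fetal bovine serum. HMEC-1 came from microvessels of the skin and carries the SV40 large T antigen, and it was grown in MCDB 131 with 10% fetal bovine serum, hydrocortisone at 1 μg/mL and epidermal growth factor at 10 ng/mL. The genotype label of both is WT, glutamine, gentamicin and penicillin were in all media, and cells of both lines were detached with trypsin before RNA was extracted. Each line stands for 1 immortalized population, and since the lines differed in medium, line and medium cannot be told apart in any value below.

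Tight junctions seal the space between neighbouring cells. Claudins span the membrane and set how tight the seal is and which ions pass, occludin and tricellulin belong to a separate membrane family, with tricellulin placed where 3 cells meet, and ZO-1 binds the tails of claudins and occludin from inside and links them to actin. CLDN5 is the claudin most often associated with endothelium, whereas CLDN1, CLDN4 and CLDN7 are best known from epithelia.

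The EA.hy926 libraries held 34846046 to 39899324 counts, the HMEC-1 libraries held 33391640 to 43877224, and TMM factors, which scale libraries for composition, were 0.942 to 0.964 and 1.04 to 1.05. Of the 20 endothelial identity genes listed, PECAM1 (1633 ± 158 and 254 ± 7.16 CPM, SD, n = 5 each) and CDH5 (1268 ± 63.1 and 441 ± 5.39 CPM) were abundant in EA.hy926 and HMEC-1 respectively. Of the same list, EMCN and TAL1 had at most 2 and 1 counts in any EA.hy926 library, against 678 to 844 and 1663 to 2318 in HMEC-1, and SOX17 was lower in EA.hy926 (4.96 ± 0.411 and 20.9 ± 0.811 CPM), so not every endothelial marker was present in EA.hy926. CPM are counts scaled to a fixed library size after TMM. The smallest amount taken as detectable was 3 counts in a library, equal to 0.0651 to 0.0904 CPM, which covers counting error only.

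All 9 genes passed the filter on low counts. Genes were called differentially expressed when edgeR's quasi-likelihood test gave a Benjamini-Hochberg adjusted p under 0.05 over all 16310 genes tested and the absolute log2 fold change (log2FC, positive when higher in EA.hy926) was over 1. CLDN1 and TJP1 were higher in EA.hy926, and CLDN4, CLDN5, CLDN7 and MARVELD2 were lower. These 6 of 9 genes (66.7%) stand beside 35.5% of all genes tested, with 2 higher beside 19.1% and 4 lower beside 16.4%. CLDN11 and CLDN12 passed the p threshold but not the fold change threshold, and OCLN passed neither, so that 8 of 9 had an adjusted p under 0.05, beside 85.8% of all genes. The CPM ranges of the lines did not overlap for the same 8 genes, beside 77.4% of all genes, so a p under the threshold or separate ranges are common among all genes. The median log2FC of the 9 genes was -0.37, beside -0.010 for all genes tested. CLDN5, CLDN7 and MARVELD2 passed the filter on low counts through HMEC-1 alone and could not have been tested without being higher there. Their calls therefore add nothing to a count of genes that differ. Among the other 6 genes 3 were called. The 35.5% of all genes still includes genes that passed the filter through a single line. The 3 of 6 therefore has no like share to stand beside. The 9 genes were also chosen with earlier results of these data known. In bulk libraries, fewer cells that carry a transcript and less of it per cell cannot be told apart.

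**Figure D1:**
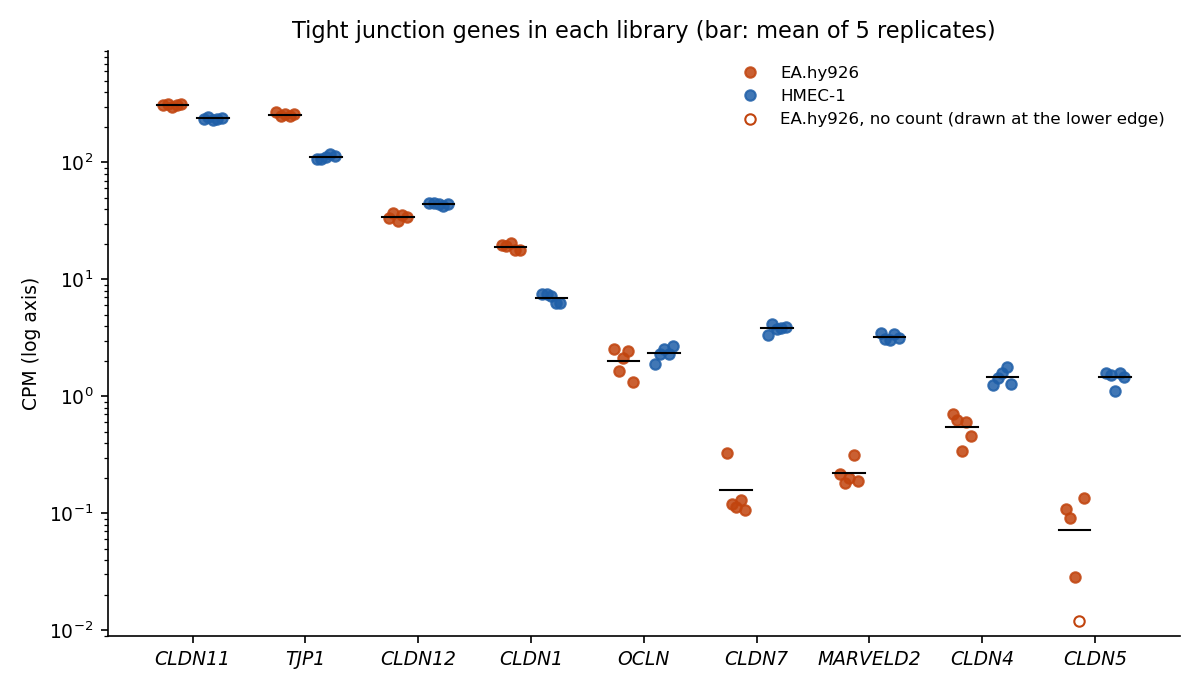
CPM of the 9 tight junction genes on a log axis, 1 point per library, with EA.hy926 in orange, HMEC-1 in blue and black bars for the means of 5 replicates; the open circle is the EA.hy926 library with no CLDN5 count. CLDN11 and TJP1 lay above 100 CPM in every library, and CLDN4, CLDN5, CLDN7 and MARVELD2 lay under 1 CPM in all EA.hy926 libraries and above it in all HMEC-1 libraries.

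**Figure D2:**
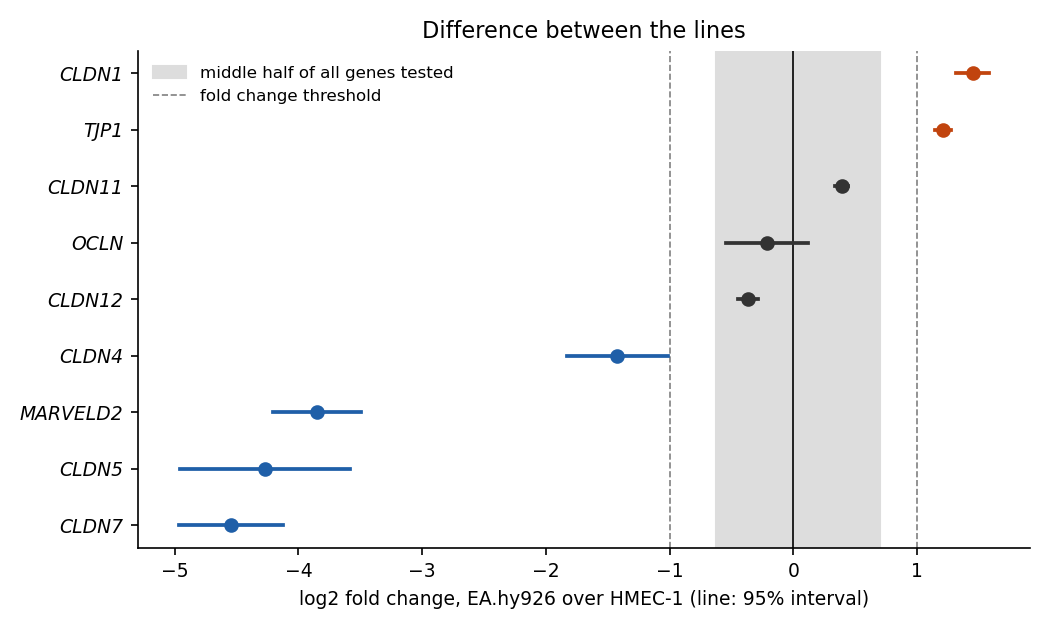
Log2FC of the 9 genes between EA.hy926 and HMEC-1, with lines for the 95% interval from edgeR's fit, dashed lines at the fold change threshold and a grey band from the lower (-0.62) to the upper (0.70) quartile of all genes tested. CLDN1 and TJP1 lie right of the threshold, CLDN4, MARVELD2, CLDN5 and CLDN7 lie left of it, and CLDN11, OCLN and CLDN12 lie inside the band.

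Promoter sequences of RefSeq (GRCh38.p14, 250 bases before to 50 bases after a gene's start) were matched by symbol for 8 of the 9 genes, in 14 windows, since some genes have several starts. Those of CLDN7, MARVELD2 and CLDN4, all lower in EA.hy926, and of CLDN1, higher in EA.hy926, are shown because they cover both directions of the calls and have few starts. Capitals mark the E-box letters CAGGTG or their reverse complement CACCTG, the letters bound by the zinc finger factors of the SNAI and ZEB families, and both strands were searched with no overlap between matches.
CLDN7, chr17:7262429-7262728, minus strand: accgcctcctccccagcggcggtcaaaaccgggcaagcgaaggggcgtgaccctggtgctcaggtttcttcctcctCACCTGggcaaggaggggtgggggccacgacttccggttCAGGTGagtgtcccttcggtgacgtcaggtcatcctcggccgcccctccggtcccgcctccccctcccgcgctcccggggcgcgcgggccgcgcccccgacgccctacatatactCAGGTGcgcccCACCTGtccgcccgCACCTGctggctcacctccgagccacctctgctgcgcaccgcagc
MARVELD2, chr5:69414866-69415165, plus strand: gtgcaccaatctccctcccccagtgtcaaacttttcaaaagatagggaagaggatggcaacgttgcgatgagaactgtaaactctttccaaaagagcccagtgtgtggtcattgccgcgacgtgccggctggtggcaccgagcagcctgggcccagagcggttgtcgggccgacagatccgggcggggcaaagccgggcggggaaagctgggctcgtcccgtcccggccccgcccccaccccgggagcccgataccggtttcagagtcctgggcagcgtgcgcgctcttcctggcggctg
CLDN4, chr7:73830746-73831045, plus strand: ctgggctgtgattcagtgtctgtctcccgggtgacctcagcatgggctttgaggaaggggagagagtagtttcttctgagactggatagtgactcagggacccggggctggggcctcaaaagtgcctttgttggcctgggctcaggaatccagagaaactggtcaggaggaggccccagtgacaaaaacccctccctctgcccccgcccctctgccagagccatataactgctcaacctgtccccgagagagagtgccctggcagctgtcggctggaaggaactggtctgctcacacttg
CLDN1, chr3:190322397-190322696, minus strand: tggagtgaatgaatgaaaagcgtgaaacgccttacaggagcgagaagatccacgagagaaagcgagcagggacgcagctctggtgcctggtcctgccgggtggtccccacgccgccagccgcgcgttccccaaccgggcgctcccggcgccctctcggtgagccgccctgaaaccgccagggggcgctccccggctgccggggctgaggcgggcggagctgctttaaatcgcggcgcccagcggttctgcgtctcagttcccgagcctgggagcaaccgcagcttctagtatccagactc
The CLDN7 window held 5 matches, from 174 bases before the start to 5 bases past it, and 0.094% of the 35116 promoters of this length held as many or more. This was the highest number among the 14 windows, and the share is that for a promoter taken alone, not for the highest of 14. A second CLDN7 window, at chr17:7263164-7263463, held none. The windows of CLDN1, CLDN4 and MARVELD2 held no match. Among the other genes, 1 of 4 TJP1 windows held 1 match and the OCLN windows held 1 and 2, so that 4 of 14 windows, in 3 genes, held the letters, beside 20.6% of all promoters of this length. A match describes the letters only. GGGCGG, the GC box, was found once in the CLDN4 window, in 2 copies in those of CLDN1 and CLDN7 and in 3 in that of MARVELD2, on either strand, and 45% of all promoters held it.

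TJP1 (ENSG00000104067, chromosome 15, 29699367 to 29968915, minus strand) encodes ZO-1. Its level was 268, 249, 257, 249 and 258 CPM in EA.hy926 replicates 1 to 5, and 106, 107, 110.5, 117 and 114 CPM in HMEC-1 replicates 1 to 5. All EA.hy926 libraries were above all HMEC-1 libraries, and the spread within a line was small beside the distance between them. The difference was 2.31-fold (log2FC = 1.21, standard error 0.031, edgeR adjusted p = 2.6e-19).

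TJP3, which encodes ZO-3, a relative of ZO-1, stood at 0.534 ± 0.0999 CPM in EA.hy926 and 0.426 ± 0.0987 in HMEC-1 (SD, n = 5 each) and did not pass the test (adjusted p = 0.18, edgeR). Its libraries overlapped between the lines and lay far under those of TJP1 in RPKM, the CPM per kilobase of exon. Exons of other genes cover 0% of the exonic bases of TJP1.

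**Figure D3:**
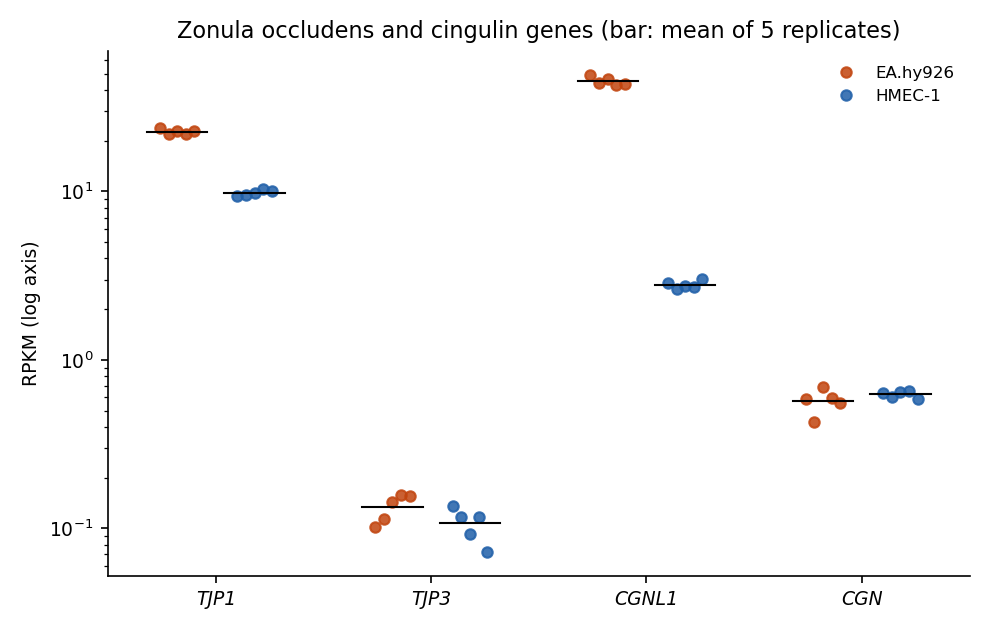
RPKM (log axis) of the zonula occludens genes TJP1 and TJP3 and the cingulin genes CGNL1 and CGN, 1 point per library, with EA.hy926 in orange, HMEC-1 in blue and black bars for means of 5 replicates. TJP1 and CGNL1 are higher in every EA.hy926 library, and the points of TJP3 and CGN overlap.

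CLDN11 (ENSG00000013297, chromosome 3, 170418868 to 170454733, plus strand), a claudin known from myelin and the testis barrier, was the most abundant member in both lines per length. Its level was 312, 317, 299, 310.4 and 318 CPM in EA.hy926 against 237, 245, 232, 234 and 238 in HMEC-1. The libraries of the lines did not overlap, but the difference of 1.31-fold stayed under the fold change threshold (log2FC = 0.39, standard error 0.025, edgeR adjusted p = 3.1e-12). ENSG00000285218, which is absent from the count table, shares 683 exonic bases, 15.8% of those of CLDN11.

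Over the 24 claudins of the table, CLDN11 made up 81.0% to 82.5% of the summed claudin RPKM in EA.hy926 libraries and 78.2% to 79.2% in HMEC-1 libraries. The sum was 88.1 ± 1.66 RPKM in EA.hy926 and 69.7 ± 1.31 RPKM in HMEC-1 (SD, n = 5 each), and without CLDN11 it was 16.1 ± 0.297 and 14.8 ± 0.276 RPKM. CLDN12 held 5.80% ± 0.237 of the sum in EA.hy926 and 9.44% ± 0.202 in HMEC-1, whereas CLDN1 held 5.97% ± 0.461 and 2.76% ± 0.231. CLDN4, CLDN5 and CLDN7 held 0.132%, 0.0238% and 0.0727% in EA.hy926, and 0.448%, 0.607% and 2.19% in HMEC-1. The CLDN15 share overlapped, at 4.32% to 5.11% in EA.hy926 against 3.45% to 4.33% in HMEC-1. CLDN11 was therefore the main claudin transcript of both lines, and the shares of CLDN1, CLDN4, CLDN5, CLDN7 and CLDN12 did not overlap between them.

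**Figure D4:**
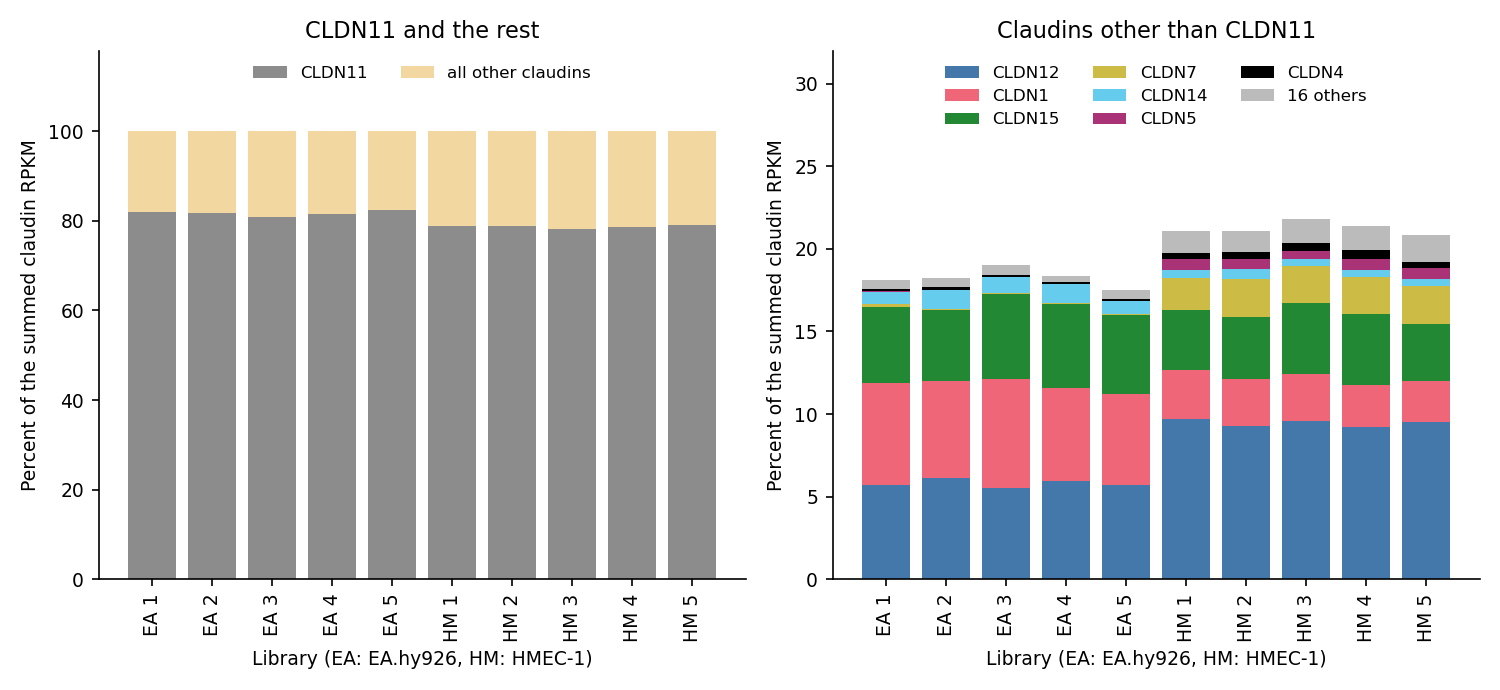
Stacked bars of the percent of the summed claudin RPKM in each library (EA, EA.hy926; HM, HMEC-1), with CLDN11 against all other claudins on the left and the claudins other than CLDN11 on the right, where the axis ends at 32%. CLDN11 makes up 78.2% to 82.5% of every bar, the CLDN12 and CLDN7 segments are larger in HMEC-1, and the CLDN1 segment is larger in EA.hy926.

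CLDN12 (ENSG00000157224, chromosome 7, 90383721 to 90513402, plus strand), a claudin that lacks the PDZ-binding tail of most claudins and is linked to calcium passage between cells, was slightly lower in EA.hy926. It was measured at 33.6, 36.7, 31.6, 35.3 and 34.2 CPM in EA.hy926 against 45.0, 44.6, 44.1, 42.6 and 44.4 in HMEC-1, without overlap. The difference of 1.29-fold passed the p threshold only (log2FC = -0.37, standard error 0.038, edgeR adjusted p = 1.1e-08). Other genes cover 17.6% of its exonic bases, among them CDK14 with 201 shared bases, which itself had 614 to 688 counts in EA.hy926 against 2922 to 3738 in HMEC-1, and GTPBP10 with 347. How reads on shared bases were assigned is not given in the sources used here.

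CLDN1 (ENSG00000163347, chromosome 3, 190305707 to 190322446, minus strand), a sealing claudin of the epidermis, was the one claudin among the 9 genes called higher in EA.hy926. Its values were 19.8, 19.2, 20.6, 18.0 and 17.8 CPM in EA.hy926 against 7.56, 7.52, 7.20, 6.33 and 6.28 in HMEC-1. Every EA.hy926 library exceeded every HMEC-1 library. The fold was 2.73 (log2FC = 1.45, standard error 0.064, edgeR adjusted p = 5.5e-15).

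CLDN7 (ENSG00000181885, chromosome 17, 7259903 to 7263983, minus strand), an epithelial claudin that also sits on the lateral membrane, had 12, 4, 4, 5 and 4 counts in EA.hy926 against 117, 169, 175, 157 and 150 counts in HMEC-1. In CPM this was 0.159 ± 0.0929 against 3.81 ± 0.296 (SD, n = 5 each), with the EA.hy926 values close to the smallest detectable amount. Replicate 1 of EA.hy926 was above the other EA.hy926 replicates and still far under every HMEC-1 library. The transcript was 23.3-fold lower in EA.hy926 (log2FC = -4.54, standard error 0.20, edgeR adjusted p = 6.0e-15), and without EA.hy926 replicate 1 the log2FC was -4.97. ELP5, on the opposite strand, shares 38 exonic bases with CLDN7 and had 1375 to 1554 and 1540 to 1861 counts, and without a stated strand setting reads there cannot be told apart. The pseudogene CLDN7P1 had no count in any library.

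MARVELD2 (ENSG00000152939, chromosome 5, 69415065 to 69444330, plus strand) encodes tricellulin. It had 8, 6, 7, 12 and 7 counts in EA.hy926 against 121, 125, 141, 140 and 120 counts in HMEC-1. These counts correspond to 0.220 ± 0.0536 CPM and 3.23 ± 0.198 CPM (SD, n = 5 each), a 14.4-fold lower level in EA.hy926 (log2FC = -3.85, standard error 0.17, edgeR adjusted p = 5.0e-15). No library of one line came near the other line.

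OCLN (ENSG00000197822, chromosome 5, 69492292 to 69558104, plus strand) encodes occludin, the relative of tricellulin found along the whole junction. Its level was 2.52, 1.66, 2.11, 2.45 and 1.32 CPM in EA.hy926 against 1.88, 2.28, 2.54, 2.28 and 2.67 in HMEC-1. The libraries of the lines overlapped, and the spread within EA.hy926 was wide. OCLN did not pass the test (log2FC = -0.21, 95% interval -0.54 to 0.12, edgeR adjusted p = 0.21), an interval that leaves room for a level up to 0.54 lower on the log2 scale. When library totals were used in place of TMM factors, which moved the median log2FC of all genes by -0.13, OCLN was lower by 0.35 with an adjusted p of 0.044 in edgeR. The ratio of the RPKM of OCLN to that of MARVELD2 was 3.34 to 5.54 in EA.hy926 libraries and 0.260 to 0.405 in HMEC-1 libraries. OCLN has a near-identical pseudogene, OCLNP1, with 4 to 11 counts in EA.hy926 against 5 to 10 in HMEC-1. How reads that match both were counted is not given in the sources used here, so the level of OCLN is uncertain by an unknown amount.

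CLDN4 (ENSG00000189143, chromosome 7, 73799542 to 73832690, plus strand) is a sealing claudin of many epithelia. It had 26, 21, 12, 23 and 17 counts in EA.hy926 against 44, 58, 73, 73 and 49 counts in HMEC-1. Expressed as CPM, the level was 0.547 ± 0.145 and 1.47 ± 0.223 (SD, n = 5 each), which did not overlap but lay low in both lines. The difference was 2.68-fold (log2FC = -1.42, standard error 0.19, edgeR adjusted p = 7.6e-07), with a 95% interval of the log2FC from -1.83 to -1.02.

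CLDN5 (ENSG00000184113, chromosome 22, 19523024 to 19527545, minus strand) had 4, 3, 1, 0 and 5 counts in the EA.hy926 libraries and 55, 62, 51, 65 and 56 in those of HMEC-1. The HMEC-1 counts equal 1.45 ± 0.199 CPM (SD, n = 5), a low level for the claudin best known from endothelium, and 3 of 5 EA.hy926 libraries also reached the floor of 3 counts. Per length it reached 0.423 ± 0.0580 RPKM in HMEC-1, beside 54.9 ± 1.16 RPKM of CLDN11 in the same libraries. The fitted difference was 19.3-fold (edgeR adjusted p = 8.7e-11). The 95% interval of its log2FC ran from -4.95 to -3.58, and leaving out single libraries moved the log2FC to between -4.61 and -3.93.

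Ranked by RPKM, the order in EA.hy926 was CLDN11 (72.0 ± 1.77), TJP1 (22.6 ± 0.714), CLDN1 (5.25 ± 0.329), CLDN12 (5.11 ± 0.286), OCLN (0.179 ± 0.0457), CLDN4 (0.116 ± 0.0310), CLDN7 (0.0640 ± 0.0373), MARVELD2 (0.0409 ± 0.00998) and CLDN5 (0.0211 ± 0.0164). CLDN1 and CLDN12 overlapped in their replicates, as did each neighbouring pair from OCLN down to CLDN5, so only the steps from CLDN11 to TJP1, from TJP1 to CLDN1 and from CLDN12 to OCLN exceeded the spread of the replicates. In HMEC-1 the order was CLDN11 (54.9 ± 1.16), TJP1 (9.82 ± 0.408), CLDN12 (6.58 ± 0.138), CLDN1 (1.92 ± 0.174), CLDN7 (1.53 ± 0.119), MARVELD2 (0.602 ± 0.0368), CLDN5 (0.423 ± 0.0580), CLDN4 (0.312 ± 0.0476) and OCLN (0.207 ± 0.0268), and of the neighbours CLDN5 and CLDN4 alone overlapped. OCLN thus stood in the middle of the order in EA.hy926 and last in HMEC-1, with a level that did not pass the test between the lines. With the longest transcript in place of all exons as the length, CLDN1 and CLDN12 changed places in EA.hy926 and CLDN4 and OCLN in HMEC-1.

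The other 18 claudins were mostly at or near 0 counts. Only 5 passed the filter on low counts, 4 claudins of the table had no count in any library, and the remaining 9 had at most 18 counts in a library. CLDN15, which forms channels for cations in the gut, had the highest RPKM of the 18 and was 12.2 ± 0.689 CPM in EA.hy926 against 7.82 ± 0.744 in HMEC-1 (SD, n = 5 each; log2FC = 0.64, standard error 0.067, edgeR adjusted p = 1.6e-08). CLDN14, a barrier claudin of the inner ear and kidney, was 2.00 ± 0.403 and 0.807 ± 0.149 CPM and was called higher in EA.hy926 (log2FC = 1.31, standard error 0.18, edgeR adjusted p = 6.0e-07). The remaining 3 calls lay under 1 CPM in both lines and were named after their values were seen. CLDN16 was higher in EA.hy926 (23 to 34 counts against 0 to 4), and CLDN18 (3 to 8 against 13 to 19) and CLDN23 (0 to 3 against 15 to 35) were lower. In all, 2 of 5 tested were higher and 2 lower (median log2FC 0.64). Counts of called genes in this list and those below stand beside 35.5% called among all genes tested, 19.1% higher and 16.4% lower. Listed genes such as CLDN18, CLDN23, CXADR, PATJ, PRKCZ, LLGL2 and SNAI2 passed the filter on low counts through HMEC-1 alone. CLDN16 passed it through EA.hy926 alone. This fixed the direction of their calls, so among the called genes of the other claudins only CLDN14 could have gone either way. The shares of all genes hold such genes too.

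Of the tricellular and MARVEL proteins besides the members, 1 of 4 could be tested. LSR, the receptor that recruits tricellulin to corners where cells meet, was 3.30 ± 0.328 CPM in EA.hy926 against 1.46 ± 0.375 in HMEC-1 (SD, n = 5 each), hence higher where MARVELD2 was lower (log2FC = 1.17, standard error 0.15, edgeR adjusted p = 1.8e-07). Tested with glmTreat of edgeR, which asks for an absolute log2FC above 1, it lost its call (adjusted p = 0.12).

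Junctional adhesion molecules of the immunoglobulin family, which sit beside claudins in the membrane and in several cases bind ZO-1, were called in 3 of 4 genes tested, out of 6 listed (median log2FC 1.74). ESAM, an endothelial adhesion molecule, was 235 ± 8.95 CPM in EA.hy926 against 6.04 ± 0.309 in HMEC-1 (SD, n = 5 each; log2FC = 5.28, standard error 0.040, edgeR adjusted p = 8.6e-28). JAM3 was 88.4 ± 2.95 and 10.1 ± 0.425 CPM (log2FC = 3.13, standard error 0.038, edgeR adjusted p = 1.0e-24), with 35.6% of its exonic bases covered by other genes. CXADR, the coxsackievirus and adenovirus receptor of epithelial junctions, had 0 to 4 counts in EA.hy926 against 43 to 67 in HMEC-1 (log2FC = -4.38, standard error 0.37). F11R, encoding JAM-A, passed the p threshold only, at 25.4 ± 3.26 and 19.9 ± 1.05 CPM, with 36.6% of its exonic bases covered by other genes.

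All 13 other scaffold genes listed for the junction were tested. In EA.hy926, 2 were higher and 5 were lower, with a median log2FC of -0.75. CGNL1 encodes paracingulin, a cytoplasmic partner of ZO-1, and was 389.9 ± 24.0 CPM in EA.hy926 against 24.2 ± 1.28 in HMEC-1 (SD, n = 5 each; log2FC = 4.01, standard error 0.044, edgeR adjusted p = 1.9e-25). Its relative cingulin, CGN, was 3.79 ± 0.631 and 4.13 ± 0.196 CPM and did not pass the test (edgeR adjusted p = 0.27). The other scaffold gene that was higher was MAGI2, at 1.39 ± 0.276 and 0.377 ± 0.114 CPM. MPDZ and PATJ, many-PDZ scaffolds that bind claudin tails, were lower, MPDZ at 7.07 ± 0.543 against 92.4 ± 1.53 CPM and PATJ at 0.274 ± 0.124 against 1.83 ± 0.255 CPM. AFDN, encoding afadin, which ties nectins to actin, was 81.5 ± 1.97 against 205 ± 6.26 CPM, and AMOT and AMOTL2 of the angiomotin family were the remaining lower genes. PATJ had 3 to 14 counts in EA.hy926 against 61 to 91 in HMEC-1. It passed the filter on low counts through HMEC-1 alone, which fixed the direction of its call. TJP1 and CGNL1 were therefore higher while MPDZ and AFDN were lower in the same libraries.

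**Figure D5:**
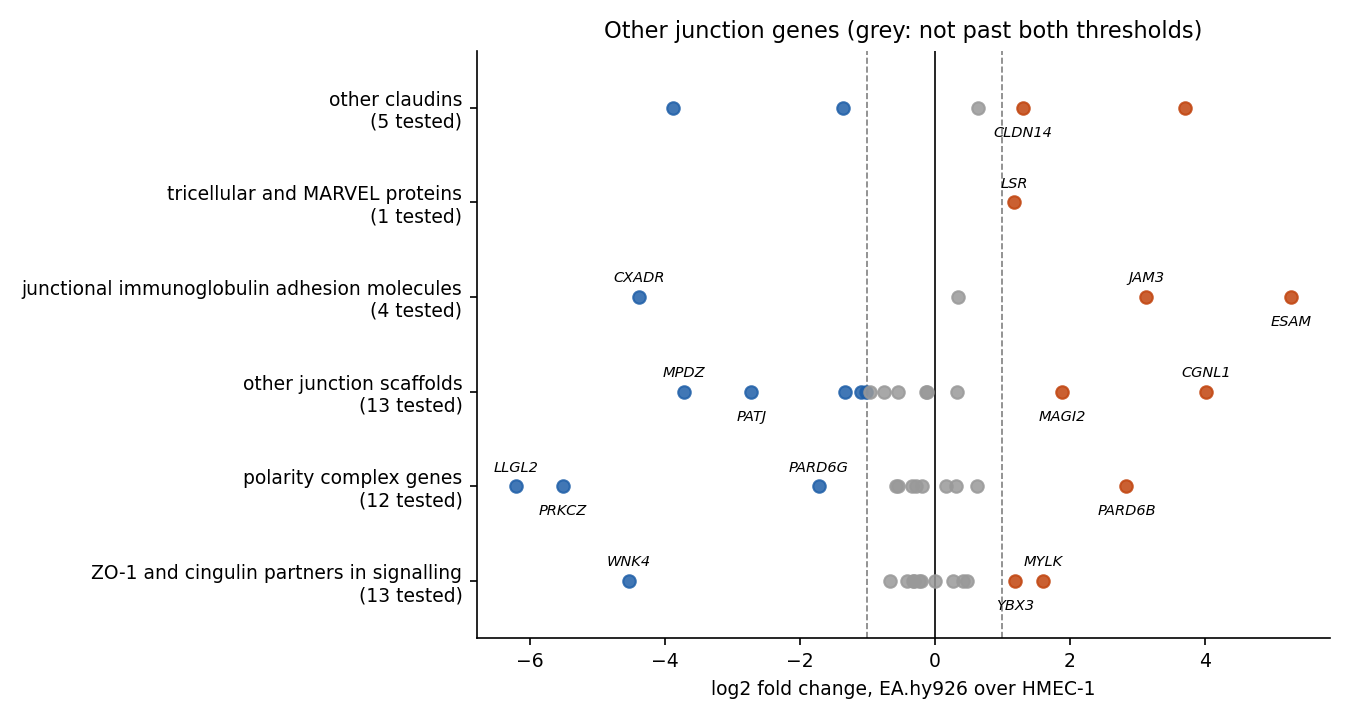
Log2FC between EA.hy926 and HMEC-1 of the tested genes in 6 lists of junction genes, 1 point per gene, with orange for genes called higher in EA.hy926, blue for genes called lower, grey for the rest and dashed lines at the fold change threshold. Calls lie on both sides in the claudin, adhesion molecule, scaffold, polarity and signalling lists. ESAM lies furthest right at 5.28 and LLGL2 furthest left at a fitted value of -6.20. The points of LLGL2, PRKCZ and CXADR rest on 0 to 5 counts per EA.hy926 library. In the claudin and adhesion molecule lists, each gene called lower passed the filter on low counts through HMEC-1 alone.

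The polarity complexes place tight junctions at the apical side of a cell. Of 14 such genes 12 were tested, of which 1 was higher and 3 lower (median log2FC -0.31). PARD6B was higher, with 2.48 ± 0.331 CPM in EA.hy926 against 0.349 ± 0.110 in HMEC-1 (SD, n = 5 each; log2FC = 2.84, standard error 0.19), and its paralog PARD6G was lower, with 0.755 ± 0.106 and 2.49 ± 0.218 CPM (log2FC = -1.72, standard error 0.14). PRKCZ, the zeta isoform of atypical protein kinase C, had 0 to 2 counts in EA.hy926 against 45 to 78 in HMEC-1, at least 15.5-fold lower against a floor of 3 counts per library, and other genes cover 12.2% of its exonic bases. LLGL2, a lateral polarity protein of epithelia, had 2 counts in 4 EA.hy926 libraries and 5 in the other, against 173 to 254 in HMEC-1, so its fitted log2FC of -6.20 rests on few counts in EA.hy926. SCRIB, with the highest RPKM of the list, was 185 ± 8.69 and 119.6 ± 3.57 CPM and stayed under the fold change threshold.

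Among 13 signalling partners of ZO-1 and cingulin, all tested, 2 were higher and 1 lower (median log2FC -0.20). YBX3, known as ZONAB, a factor that binds ZO-1, was 519 ± 9.87 CPM in EA.hy926 against 227 ± 6.19 in HMEC-1 (SD, n = 5 each; log2FC = 1.19, standard error 0.025, edgeR adjusted p = 1.0e-20). MYLK, the myosin light chain kinase that opens junctions by contraction, was 61.2 ± 3.17 and 20.1 ± 1.43 CPM (log2FC = 1.61, standard error 0.046). WNK4, a kinase that phosphorylates claudins, was 1.35 ± 0.130 and 31.3 ± 1.03 CPM (log2FC = -4.53, standard error 0.066), with 15.4% of its exonic bases covered by other genes. RAB13, a GTPase that carries junction proteins to the membrane and the gene of highest RPKM here, was 234 ± 8.45 and 168 ± 7.75 CPM and stayed under the fold change threshold, with 24.8% of its exonic bases covered by other genes.

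Epithelial markers were read beside the claudins because EA.hy926 has an epithelial parent. Of 19 epithelial identity genes 7 were tested, 2 of them higher (KRT8 and EPCAM) and 3 lower (SPINT1, KRT19 and GRHL1) in EA.hy926 (median log2FC -0.23). Their summed level was 682 to 739.7 CPM in EA.hy926 libraries and 135 to 152 CPM in HMEC-1 libraries, with KRT8 at 546 ± 21.7 and 19.2 ± 0.947 CPM (SD, n = 5 each) and KRT18 at 161 ± 7.27 and 108 ± 6.36 CPM. SPINT1, an inhibitor of epithelial surface proteases, was 0.0886 ± 0.0718 and 4.13 ± 0.455 CPM, and KRT19 was 0.132 ± 0.0565 and 3.56 ± 0.449 CPM. Both were lower in EA.hy926, as CLDN4, CLDN7 and MARVELD2 were, whereas CLDN1 was higher, as KRT8 and EPCAM were. In EA.hy926 SPINT1 had 1 to 6 counts and KRT19 had 2 to 7. Both passed the filter on low counts through HMEC-1 alone and could not have been tested without being higher there. EPCAM had 25 to 40 counts in EA.hy926 against 4 to 22 in HMEC-1. It passed the filter through EA.hy926 alone, which fixed the direction of its call. The transcription factor GRHL1 was 1.37 ± 0.214 and 6.27 ± 0.782 CPM. The defining epithelial genes CDH1, GRHL2 and ESRP1 had at most 2 counts in any library of either line, and 9 of 19 genes in EA.hy926 and 11 of 19 in HMEC-1 had no library above 3 counts. The part of these genes in the claudin differences was not tested.

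Factors of the epithelial to mesenchymal transition, among which those of the SNAI and ZEB families bind the E-box letters marked above, were also listed. Of 8 such genes 6 were tested, none of them called higher and 2 called lower in EA.hy926 (median log2FC 0.035). SNAI2 had no count in any EA.hy926 library and 90 to 129 counts in HMEC-1, at least 31.2-fold lower in EA.hy926 against a floor of 3 counts per library. The other SNAI gene listed, SNAI1, went the other way, at 15.1 ± 1.05 CPM in EA.hy926 against 9.60 ± 0.951 in HMEC-1. It passed the p threshold only (log2FC = 0.65, standard error 0.067, edgeR adjusted p = 1.1e-08). TWIST2 was 5.84 ± 0.455 CPM in EA.hy926 against 32.4 ± 1.94 in HMEC-1 (SD, n = 5 each; log2FC = -2.47, standard error 0.059). ZEB1, the gene of highest RPKM in the list averaged over both lines (in HMEC-1 TWIST2 was higher, at 15.2 beside 7.92 RPKM), was 136 ± 8.14 and 68.5 ± 1.53 CPM, and its log2FC of 0.99 missed the threshold and exceeded it without EA.hy926 replicate 2 (1.00) or replicate 4 (1.02). The part of these factors in the claudin differences was not tested.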

How the data were processed

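RNA-seq libraries of 2 untreated cell lines were analysed, 5 replicates per line as the labels give them, each described in the study's methods as an independent biological replicate. After oligo(dT) selection of mRNA, the authors aligned reads to GRCh38 with HISAT2 and deposited raw counts per gene, not normalized. The study's methods name HTSeq for the counting and the submitters' processing notes name fastp and featureCounts. Versions, annotation release and strand setting are not given in the sources used here, so counts of overlapping or near-identical genes are uncertain.

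Symbols, coordinates and exon lengths came from GENCODE 44, which matched 56434 of 60448 genes. Genes were filtered with filterByExpr (minimum count 10, total 15), scaled by TMM and compared by the quasi-likelihood functions glmQLFit and glmQLFTest (edgeR 4.0.16, R 4.3.3), without covariates, with Benjamini-Hochberg adjustment over all 16310 genes tested. RPKM are CPM per kilobase of all annotated exons. Overlaps were computed with bedtools 2.31.1, and standard errors are the absolute log2FC over the square root of F. On counts simulated for this comparison, with 187 of 16183 tested genes changed by a factor of 3, edgeR called all 187 and 0 others past both thresholds. The simulated share of changed genes was far under the 35.5% called here, and all genes had a common dispersion. The simulation therefore gives no error rate for these data.

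Alternatives were DESeq2 1.42.0, limma-voom (limma 3.58.1), no filter, a minimum of 10 counts in each library, library totals, RLE factors, a replicate block, glmTreat, the longest transcript as length, and each library left out. Replicates of a line differed beyond counting noise (chi-square of 3.08 to 7.63 per gene), so no library was counted as deposited in duplicate. Members and gene lists were chosen with earlier results of these data known. Named genes were the 9 members, up to 4 called genes per list with the largest absolute log2FC and a mean of at least 1 CPM in a line, the gene of highest RPKM per list, genes overlapping a member, and the 2 protein-coding genes nearest in profile to each called member. Another 16 genes were named after their values were seen. SNAI1 was named beside them and is outside the counts of named genes and the checks below. A pair of listed genes is not reported here and was taken out of the lists and their counts. Protein sequences were not used here.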

Additional observations from a re-analysis of the deposited data

Results flagged for a closer look

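In each group of 5 libraries, a library was flagged when its gap to the nearest other exceeded Dixon's 95% limit. Of 148 groups (74 named genes in both lines), 14 were flagged. Chance flags about 1 in 20 groups when values follow a normal distribution, which counts near 0 do not. A group with counts in a single library is always flagged, as for TAL1, EMCN and HAP1 in EA.hy926. The number flagged therefore cannot be read against that rate. Among the 9 tight junction genes 3 of 18 groups were flagged. CLDN7 stood at 0.325 CPM (12 counts) in EA.hy926 replicate 1, beside 0.108 to 0.130 CPM (4 to 5 counts) in the other EA.hy926 libraries. MARVELD2 stood at 0.312 CPM (12 counts) in EA.hy926 replicate 4, beside 6 to 8 counts in the others. CLDN5 stood at 1.11 CPM in HMEC-1 replicate 3, beside 1.47 to 1.59 CPM.

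Among junction genes outside the 9, ESAM was at 250 CPM in EA.hy926 replicate 1 (others 227 to 233), LLGL2 at 0.13 CPM in EA.hy926 replicate 4 (5 counts beside 2 in each other library), PARD6B at 0.542 CPM in HMEC-1 replicate 1 (others 0.270 to 0.325), PARD6G at 2.86 CPM in HMEC-1 replicate 3 (others 2.33 to 2.48), MYLK at 22.6 CPM in HMEC-1 replicate 5 (others 19.0 to 19.9) and MAGI2 at 0.576 CPM in HMEC-1 replicate 5 (others 0.294 to 0.371). EPCAM was at 0.539 CPM in HMEC-1 replicate 2 (22 counts beside 4 to 10). In EA.hy926, single libraries carried the few counts of TAL1 (0.026 CPM, replicate 4), EMCN (0.052 CPM, replicate 4) and HAP1 (0.0541 CPM, replicate 1), with 0 counts in the others, and HAP1 was at 0.781 CPM in HMEC-1 replicate 3 (others 0.908 to 0.956). These libraries differed from gene to gene, and no call among the 9 genes changed when any of them was left out.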

How the results depend on the processing

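Of 1307 values of named genes under alternatives, 1300 kept their direction and their call past both thresholds, 5 lost a call and 2 gained one, and none reversed. With library totals, OCLN (adjusted p = 0.044 against 0.21, edgeR) and CGN (0.027 against 0.27) passed the p threshold alone, which gave 9 of the 9 genes with an adjusted p under 0.05 in place of 8. Calls were lost under glmTreat by LSR, CLDN18, AMOT and AMOTL2 and without EA.hy926 replicate 2 by AMOTL2, and ZEB1 was gained without EA.hy926 replicate 2 or 4. A minimum of 10 counts in each library left 3 of the 9 tight junction genes past both thresholds and 5 with an adjusted p under 0.05, because CLDN5, CLDN7 and MARVELD2 could then not be tested. It left 35 list genes and 3255 of all genes, against 56 and 5784 in the main analysis, while no filter gave 69 and 9312 and glmTreat gave 51 list genes. Leaving out single libraries gave 6 to 6 and 8 to 8 of the 9 genes, 55 to 59 list genes and 5945 to 6000 of all genes. The filter on low counts was run again each time and then asked for fewer libraries. These counts therefore do not measure the effect of the library left out alone. With the longest transcript as length, CLDN11 made up 83.3% of the summed claudin RPKM in EA.hy926 and 79.3% in HMEC-1.

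Replicate numbers did not pair the libraries, since deviations of same-numbered libraries correlated at -0.023 to 0.039. With a replicate block, 6 of the 9 genes, 56 list genes and 5786 of all genes passed both thresholds, and 2 of 5 EA.hy926 libraries correlated best with their own number. Levels under about 0.1 CPM rest on 3 counts or fewer, so differences among the lowest genes in EA.hy926 were not detectable at this depth.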

Other observations

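Genes of other cell types were listed as a check on what the cultures held. Of 20 endothelial identity genes 12 were higher and 3 lower in EA.hy926 (median log2FC 1.44, summed level 7485 to 8307 CPM against 2602 to 2680 CPM in HMEC-1). Among all genes tested, 19.1% were called higher and 16.4% lower. EMCN, TAL1 and genes of the next lists such as COL1A2, LYZ and CD14 passed the filter through a single line, which fixed the direction of their calls. NOS3, the endothelial nitric oxide synthase, stood at 350.5 ± 6.62 and 24.7 ± 1.30 CPM (SD, n = 5 each), ENG at 1267 ± 40.9 and 375 ± 8.45 CPM, ICAM2 at 129 ± 4.86 and 11.1 ± 0.536 CPM, and VWF at 57.9 ± 9.30 and 22.6 ± 0.435 CPM. The lower ones were SOX17 (4.96 ± 0.411 and 20.9 ± 0.811 CPM), EMCN (at most 2 counts in EA.hy926 against 678 to 844 in HMEC-1, at least 203-fold lower against 3 counts per library) and TAL1 (at most 1 count against 1663 to 2318, at least 540-fold lower). Of 15 mesenchymal and mural genes 11 were tested, with 2 higher and 8 lower (median log2FC -4.64). RGS5, a pericyte marker, was at 430.0 ± 23.5 and 5.05 ± 0.221 CPM and ACTA2 at 6.26 ± 0.613 and 0.973 ± 0.174 CPM, whereas COL1A1 was at 0.318 ± 0.0977 and 358 ± 9.29 CPM, COL1A2 had at most 3 counts in EA.hy926 against 3831 to 5083 in HMEC-1, and CSPG4 was at 0.207 ± 0.0551 and 67.5 ± 1.82 CPM. Of 8 leukocyte genes 2 were tested, LYZ higher (338 to 401 counts against at most 1) and CD14 lower (0 to 4 against 17 to 26), and PTPRC, which marks leukocytes, had at most 6 counts in any library. Other genes cover 36.2% of the exonic bases of ACTA2, 34.7% of those of LYZ and 26.8% of those of ICAM2. Whether the genes of these lists have a part in the differences of the tight junction genes was not tested.

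Over the 10 libraries, the profiles closest to those of the called members were sought among 13024 protein-coding genes, by the root mean square distance of centred log2 CPM. They were EHBP1L1 (0.030) and MON1B (0.031) for TJP1, DHFR2 (0.048) and STK17A (0.075) for CLDN1, RNF112 (0.116) and CA14 (0.154) for CLDN4, HAP1 (0.184) and TRIM7 (0.187) for CLDN7, NRARP (0.156) and NEXN (0.160) for MARVELD2, and NPIPA5 (0.265) and PRKAA2 (0.270) for CLDN5. NPIPA5 belongs to a family of near-identical copies, so its counts are uncertain. The libraries fall into 2 lines, so a small distance means mainly a difference of like size between them. Near the floor this holds less closely, since log2 CPM was taken after adding a prior count of 2. HAP1, with at most 2 counts in any EA.hy926 library, had a fitted log2FC of -5.97, beside -4.54 for CLDN7.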
